A study of Mus musculus with 6 samples.

Results

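Mitosis, spindle and chromosome segregation genes were examined in cultured mouse macrophages with and without targeted retinoid X receptor (RXR) genes. The set held 50 genes, named by symbol from their known roles in cell division, and all 50 were found among the 45193 gene rows of the count table. The choice was made with earlier results of these data known, so the set has counts and medians and no test of its own. Bone marrow cells of C57BL/6J mice were cultured to day 6. They were grown in medium with 20% serum and 30% medium conditioned by L929 cells, a mouse fibroblast line. Such conditioned medium is rich in CSF-1, the growth factor of macrophages. Serum-free medium replaced the growth medium late on day 5, and all cells received only the solvent DMSO, for 3 hours. The 3 control libraries were wild type (WT). The 3 knockout libraries had the genotype RXRafl/flLysMCre RXRb-/-, called RXRKO here. In these, Rxra was flanked by loxP sites for removal by Cre, driven by lysozyme M (Lyz2) in myeloid cells, and both alleles of Rxrb were null. No Cre is stated for the WT cells, so RXR loss, Cre and the altered Lyz2 locus cannot be told apart. The labels call the replicates biological but give no animal, age or sex, so how far the p-values cover variation between mice is not given in the sources used here.

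Cells that divide switch on a shared set of genes late in the cycle. Cyclin-dependent kinase CDK1 with cyclins A and B starts mitosis, Aurora and Polo kinases build the spindle, and kinetochores tie chromosomes to it. A checkpoint holds back the anaphase-promoting complex (APC/C) until every chromosome is attached, and the contractile ring then divides the cell. CSF-1 drives marrow precursors to proliferate as they become macrophages, and such cultures can hold cycling cells.

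Estimated expression was lower in RXRKO macrophages for each of the 50 genes. All 50 passed the filter on low counts, 48 fell, 0 rose and 2 did not pass the test (edgeR quasi-likelihood F test, Benjamini-Hochberg adjusted p under 0.05 over 12011 genes). Over all tested genes, 9.61% were called lower, 1173 genes were called higher and 19.4% were called in either direction. The members' log2 fold changes ran from -1.11 to -0.19 with a median of -0.69, where the median of all tested genes was -0.0048. The members that passed stood at 46.2% to 80.5% of their WT mean. In bulk RNA, fewer dividing cells and less of these transcripts per cell cannot be told apart.

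Summed over the 50 genes, the level was 3642, 3517 and 3454 CPM (reads relative to library size scaled with TMM factors, in the usual CPM unit) in WT replicates 1, 2 and 3. It was 2220, 2311 and 2169 CPM in RXRKO replicates 1, 2 and 3. The groups lay apart, and the knockout mean of 2233 ± 72.1 CPM (SD, n = 3) was 63.1% of the WT mean of 3538 ± 95.5 CPM. Gene by gene, every RXRKO value lay below every WT value in 48 of the 50, against 17.9% of all tested genes. The 2 with overlapping values were Cdc25c and Pttg1. The plot of levels by library shows this separation gene by gene.

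**Figure D1:**
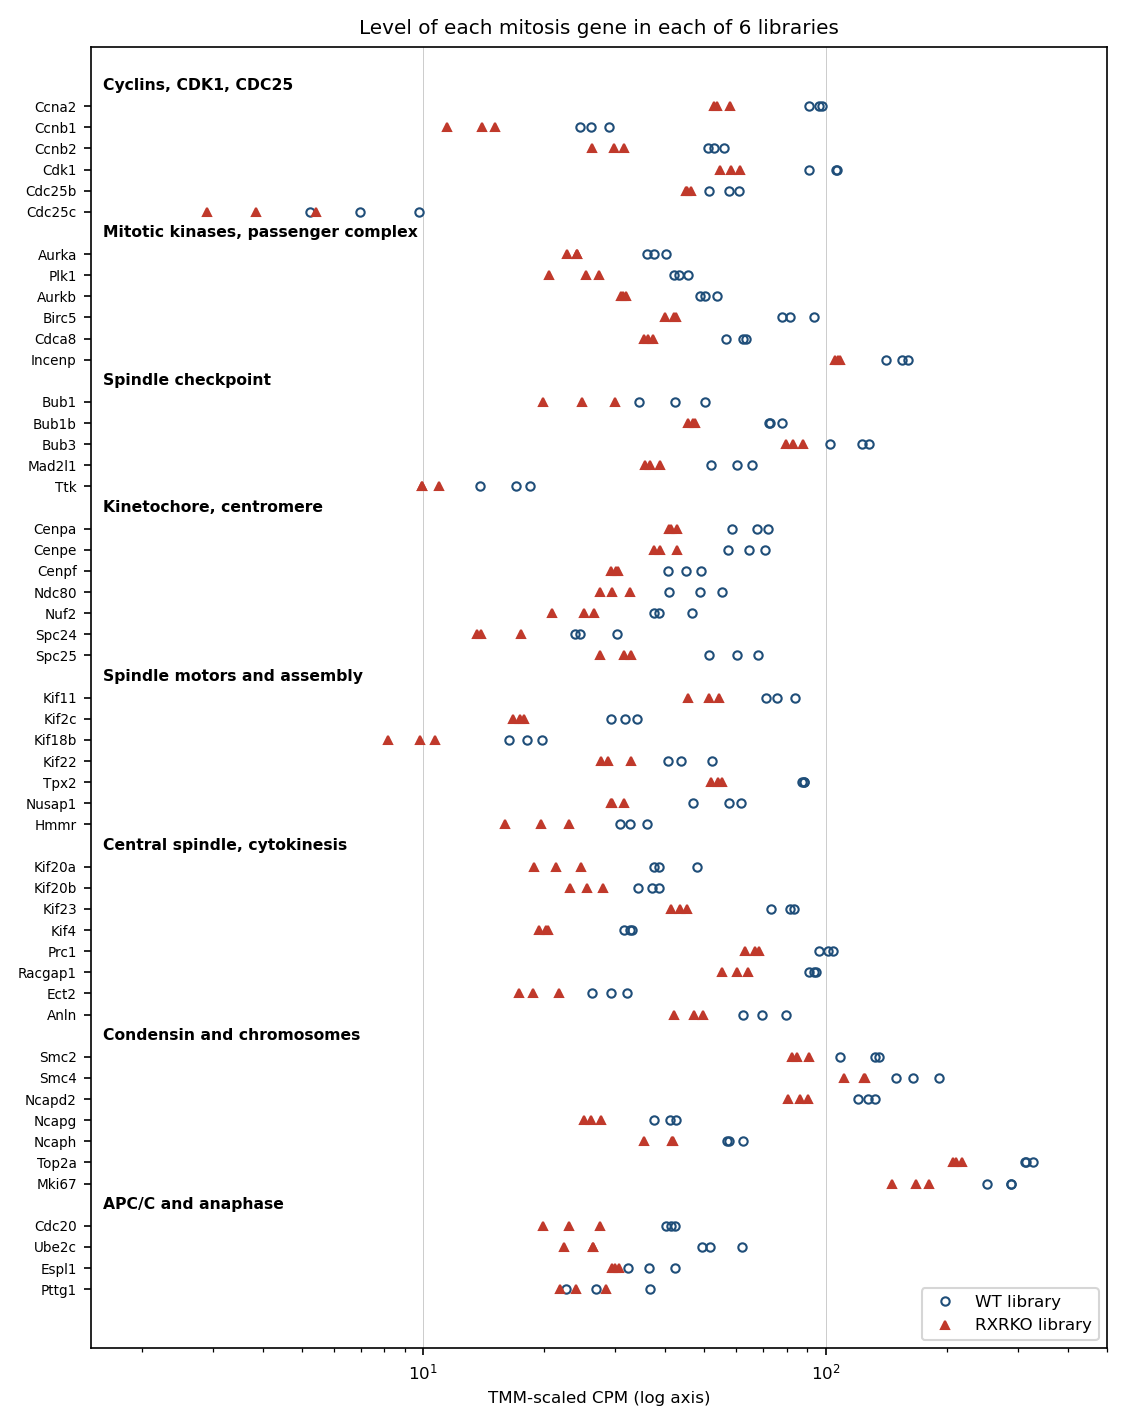
TMM-scaled CPM (log axis) of the 50 mitosis genes in the 3 WT libraries (open circles) and 3 RXRKO libraries (filled triangles), grouped by role. The triangles lie to the left of the circles in 48 genes and overlap them in Cdc25c and Pttg1.

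The libraries differed in depth by genotype. Totals ran from 7880320 to 14957253 counts in WT and from 17250051 to 25091019 counts in RXRKO, and 46 members were still called lower after every library was thinned to the smallest total. Rxrb fell from 66.7 ± 1.86 to 9.27 ± 2.09 CPM (mean ± SD, n = 3 in each genotype) and Lyz2, the Cre locus, from 15258 to 28.4 CPM, whereas Rxra, whose whole-gene count does not check the loxP deletion, stood at 104 and 109 CPM. Of 14 macrophage markers 5 were lower, Lyz2 among them, and 4 higher, with a median log2 fold change of -0.13. The share called lower was 35.7%, against 9.61% of all tested genes, and 1173 of the 12011 tested genes were called higher. Cd14 (296 and 628 CPM in WT and RXRKO, 1.08), Itgam (687 and 1080.5 CPM, 0.65) and Csf1r (2216 and 2914 CPM, 0.39) rose. Mrc1 (672 and 488 CPM, -0.46) and Aif1 (106 and 64.3 CPM, -0.72) fell. Xist had 0 reads in each WT library and stood at 209, 267 and 236 CPM in RXRKO replicates 1, 2 and 3, while the Y-linked Ddx3y fell from 107 to 51.7 CPM. Both kinds of transcript were present in each RXRKO library, so sex and genotype cannot be told apart. Of the members, only Kif4 lies on the X chromosome.

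Cyclins, CDK1 and the CDC25 phosphatases that activate it had a median log2 fold change of -0.81, and all 6 members fell. Ccna2, which encodes cyclin A2 (ENSMUSG00000027715, chromosome 3, 36564865 to 36572150 in GRCm38), measured 90.9, 96.5 and 98.0 CPM in WT replicates 1, 2 and 3. It measured 53.7, 57.8 and 52.9 CPM in RXRKO replicates 1, 2 and 3, a log2 fold change of -0.80 (SE 0.0838, adjusted p = 3.17e-05), with the SE taken from the F test. Within each genotype the 3 values lay close together, with a wide gap between the groups. Cdk1 itself stood at 106, 107 and 91.0 CPM in WT and at 58.3, 61.4 and 54.5 CPM in RXRKO, a log2 fold change of -0.80 (SE 0.0932, adjusted p = 7.63e-05). Ccnb1, which encodes the main mitotic cyclin, went from 28.9, 24.5 and 26.1 CPM to 15.1, 14.0 and 11.5 CPM. Its log2 fold change of -0.97 (SE 0.129, adjusted p = 0.000204) was the lowest of the group, and cyclin B2 (Ccnb2, -0.87) came next.

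The CDC25 phosphatases were the less certain members. Cdc25b was at 51.3, 57.6 and 61.0 CPM in WT and at 45.4, 45.0 and 46.4 CPM in RXRKO, a log2 fold change of -0.32 (SE 0.0924, adjusted p = 0.0307). Groups did not overlap, but the difference was small, and the call was lost without RXRKO replicate 1 or 2 or WT replicate 2 or 3. It was also lost with no filter, after thinning to equal totals and with replicate number as a block. Cdc25c, the weakest expressed member, had 222 reads in the WT libraries and 239 in the deeper RXRKO libraries. Levels were 6.95, 9.78 and 5.22 CPM against 3.84, 2.90 and 5.43 CPM, and RXRKO replicate 3 lay above WT replicate 3. Its log2 fold change of -0.82 (SE 0.268, adjusted p = 0.0479) lost the call without WT replicate 1 or 2 or RXRKO replicate 1 or 2. It was also lost after thinning, with the CPM filter, with length and GC offsets, with limma-voom and with the replicate block. Exons of Cdc25c, Cdc25b and Ccna2 also overlap a gene on the other strand, and whether the counting used strand is unknown here, so these 3 are uncertain to that extent.

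Mitotic kinases and the chromosomal passenger complex, which corrects faulty attachments and later guides cytokinesis, fell in all 6 members. Birc5, which encodes the passenger subunit survivin (ENSMUSG00000017716, chromosome 11, 117849251 to 117855743 in GRCm38), had 81.6, 93.5 and 78.0 CPM in WT and 42.4, 40.0 and 42.1 CPM in RXRKO. At 49.2% of the WT mean and a log2 fold change of -1.02 (SE 0.0936, adjusted p = 1.03e-05), it had the smallest adjusted p of the 50 genes. Incenp, the scaffold of the same complex, was the most abundant of the group, in CPM and per kilobase of exon, with 155, 159.9 and 141 CPM in WT and 108, 105 and 108 CPM in RXRKO. Its log2 fold change of -0.50 (SE 0.0795, adjusted p = 0.000771) was nearest to zero in the group. The 95% intervals were -1.22 to -0.82 for Birc5 and -0.67 to -0.33 for Incenp and do not meet, though this pair was picked as the extremes of the group. Between these lay borealin (Cdca8, -0.74) and the complex's kinase Aurora B (Aurkb, -0.70). Aurora A (Aurka, -0.67), which acts at spindle poles, and Polo-like kinase 1 (Plk1, -0.83) fell as well. Plk1 and Cdca8 share exon bases with a gene on the other strand.

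Spindle checkpoint genes, which delay anaphase, fell in all 5 members. Bub1b, which encodes the checkpoint protein BubR1, measured 72.8, 72.5 and 77.8 CPM in WT and 47.3, 45.6 and 46.9 CPM in RXRKO (log2 fold change -0.68, SE 0.0833, adjusted p = 0.000116). Bub1, a checkpoint kinase, varied more, with 50.1, 34.3 and 42.2 CPM in WT and 24.8, 29.9 and 19.8 CPM in RXRKO. The groups still did not overlap, and the log2 fold change was -0.76 (SE 0.159, adjusted p = 0.00501). Bub3, the partner of both in the checkpoint, measured 128, 123 and 102 CPM in WT and 79.6, 88.0 and 83.0 CPM in RXRKO, and had the highest log2 fold change of the group, -0.49 (SE 0.0968, adjusted p = 0.00333). Mad2l1 (-0.68), whose product inhibits the APC/C activator CDC20, and the checkpoint kinase gene Ttk (-0.69) lay between Bub1 and Bub1b.

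Kinetochore and centromere genes fell in all 7 members. Cenpa, which encodes the centromere's own form of histone H3, measured 67.6, 72.0 and 58.4 CPM in WT and 42.6, 40.9 and 41.3 CPM in RXRKO (log2 fold change -0.66, SE 0.0968, adjusted p = 0.000441). Spc25 of the NDC80 complex, which binds microtubules, went from 60.4, 68.0 and 51.5 CPM to 27.6, 31.6 and 32.9 CPM. This was 51.2% of the WT mean and the deepest change here, -0.96 (SE 0.116, adjusted p = 9.86e-05). The other subunits of that complex fell together with it, by log2 fold changes of -0.80 for Spc24, -0.75 for Nuf2 and -0.69 for Ndc80. Cenpf had 40.7, 49.0 and 44.9 CPM in WT and 30.5, 29.3 and 30.1 CPM in RXRKO, and its log2 fold change of -0.58 (SE 0.0986, adjusted p = 0.00129) was the smallest in size. The kinetochore motor gene Cenpe changed by -0.69.

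Motors and assembly factors of the spindle fell in all 7 members. Tpx2, whose product activates Aurora A on the spindle, was the most abundant of the group, in CPM and per kilobase, with 88.4, 88.4 and 87.2 CPM in WT and 52.0, 55.2 and 53.9 CPM in RXRKO (log2 fold change -0.71, SE 0.0803, adjusted p = 5.7e-05). Kif18b, which encodes a kinesin that shortens astral microtubules, stood at 18.2, 16.3 and 19.8 CPM and 9.83, 10.7 and 8.20 CPM, a log2 fold change of -0.92 (SE 0.139, adjusted p = 0.000540). At the other end of the group, the chromokinesin gene Kif22 went from 52.1, 43.8 and 40.5 CPM to 28.8, 32.9 and 27.7 CPM, or -0.60 (SE 0.116, adjusted p = 0.00283). Both groups of 3 lay apart in each of these genes. Nusap1 (-0.88), the microtubule depolymerase gene Kif2c (-0.87), Hmmr (-0.76) and Kif11 (-0.61), the motor that pushes the spindle poles apart, completed the group. Kif22 and Nusap1 share exon bases with a gene on the other strand.

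Genes of the central spindle and of cytokinesis fell in all 8 members. Kif23, a subunit of the centralspindlin complex, measured 83.4, 73.2 and 81.7 CPM in WT and 43.5, 45.2 and 41.3 CPM in RXRKO (log2 fold change -0.87, SE 0.0897, adjusted p = 2.66e-05). Its partner in that complex, Racgap1, fell by a smaller estimate (-0.64). Prc1, which bundles the microtubules of the central spindle, measured 101, 96.3 and 104 CPM in WT and 66.7, 68.1 and 63.1 CPM in RXRKO (-0.61, SE 0.0816, adjusted p = 0.000227). Kif20a, a kinesin of late mitosis, fell from 37.6, 38.5 and 47.9 CPM to 24.7, 21.4 and 18.9 CPM (-0.94, SE 0.129, adjusted p = 0.000270), and the related Kif20b from 37.0, 34.2 and 38.5 CPM to 25.5, 28.0 and 23.2 CPM (-0.52, SE 0.106, adjusted p = 0.00447). These 2 were the lowest and highest of the group, and their 95% intervals, -1.22 to -0.66 and -0.75 to -0.29, overlap. The exchange factor gene Ect2 (-0.60), which triggers furrowing, the ring scaffold gene Anln (-0.61) and Kif4 (-0.70) fell too. Kif20a, Kif4 and Prc1 share exon bases with a gene on the other strand and are uncertain to that extent.

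Condensin subunits, which compact chromosomes, and the genes of chromosome structure fell in all 7 members, with a median log2 fold change of -0.57. Top2a (ENSMUSG00000020914, chromosome 11, 98992943 to 99024189 in GRCm38) encodes the topoisomerase that untangles sister DNA. It was the most abundant of all 50 genes in CPM, with 314, 327 and 313 CPM in WT and 211, 219 and 207 CPM in RXRKO. Its log2 fold change was -0.58 (SE 0.0740, adjusted p = 0.000148). Per kilobase, Top2a was highest in WT (35.3 against 35.1 for Incenp), but Incenp was highest in RXRKO (24.7 against 23.5 for Top2a). Mki67, the widely used proliferation marker Ki-67, had 289, 252 and 288 CPM and 167, 181 and 146 CPM (-0.75, SE 0.0954, adjusted p = 0.000156), the lowest log2 fold change in this group. Smc4, a condensin ATPase, had 192, 165 and 149 CPM and 111, 125 and 124 CPM (-0.48, SE 0.0987, adjusted p = 0.00423), the highest. The other condensin genes, Smc2, Ncapd2, Ncapg and Ncaph, fell within a narrow range from -0.62 (Ncapg) to -0.54 (Smc2). Ncapg overlaps a gene on the other strand, and exons of Top2a and Ncapd2 overlap other genes on their own strand.

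APC/C factors and anaphase regulators split. Ube2c, which encodes the ubiquitin-conjugating enzyme of the APC/C (ENSMUSG00000001403, chromosome 2, 164769898 to 164778822 in GRCm38), had 62.0, 51.5 and 49.4 CPM in WT and 26.5, 26.4 and 22.4 CPM in RXRKO. At 46.2% of the WT mean, its log2 fold change of -1.11 (SE 0.114, adjusted p = 2.7e-05) was the lowest of the 50 genes. The APC/C activator gene Cdc20 fell as well (-0.82, SE 0.121, adjusted p = 0.000469). Both genes share exon bases with a gene on the other strand. Espl1 encodes separase, the protease that cuts cohesin at anaphase, and measured 36.3, 32.3 and 42.2 CPM in WT and 29.5, 30.7 and 29.9 CPM in RXRKO. All RXRKO values lay below all WT values, but the test missed the threshold with a log2 fold change of -0.31 (SE 0.110, adjusted p = 0.0681) and a 95% interval of -0.55 to -0.07. It passed without WT replicate 2. Pttg1 encodes securin, the inhibitor of separase, and stood at 26.9, 36.5 and 22.6 CPM in WT and 24.0, 21.8 and 28.5 CPM in RXRKO. The groups overlapped, with WT replicate 2 the highest of the 6, and the log2 fold change of -0.19 (SE 0.162, adjusted p = 0.444) had a 95% interval of -0.54 to 0.16. Without WT replicate 2 the estimate was 0.0054.

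**Figure D2:**
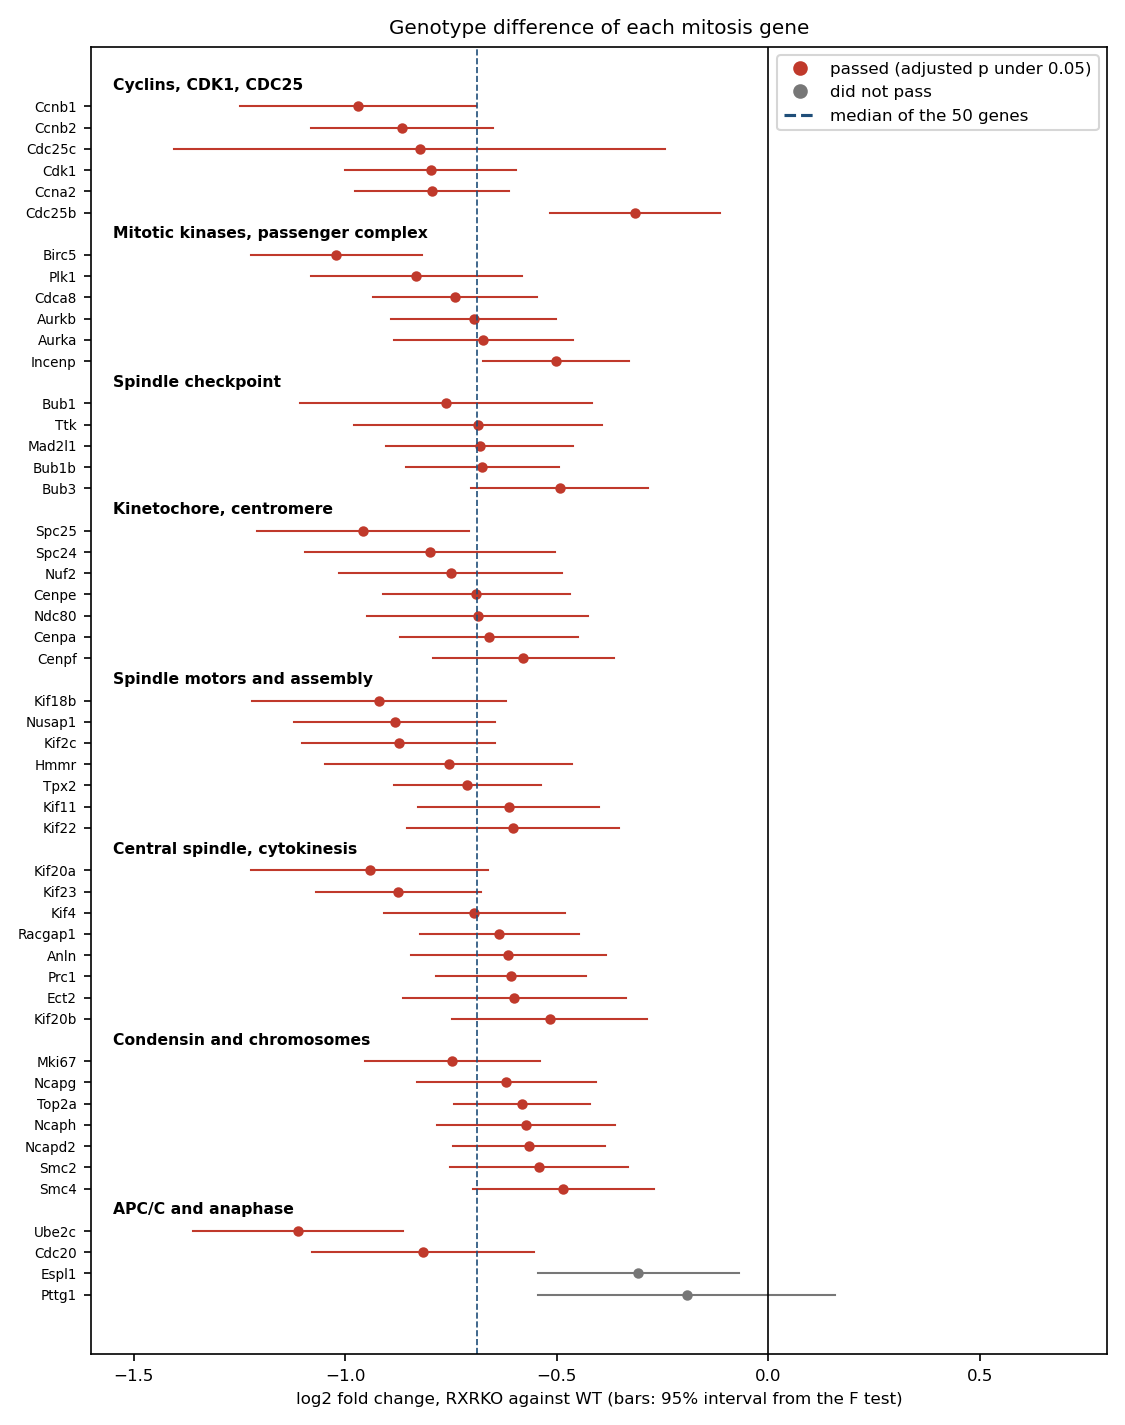
Log2 fold change of RXRKO against WT (points) with the 95% interval from the F test (bars) for the 50 genes, ordered within each role; the dashed line is their median of -0.69. The 48 genes that passed are red and all lie below zero, and the grey points are Espl1 and Pttg1.

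Intervals of these changes were set beside their median. For 42 of the 50 genes the 95% interval of the log2 fold change held the median of -0.69. The intervals of Ube2c, Birc5, Ccnb1 and Spc25 lay below it, and those of Cdc25b, Incenp, Espl1 and Pttg1 above it. That median comes from the same 50 estimates, and a wide interval holds it more easily. The count therefore does not measure how alike the changes were. Shorter gene models tended to have lower values, with Spearman's rho of 0.43 between log2 fold change and exon length across the 50 genes, which are not independent replicates. Across all tested genes rho was 0.29. With offsets for length and GC content 48 members were again called lower, with a median of -0.70, and Espl1 was then called (-0.48) while Cdc25c was not. Among libraries of one genotype the order was uneven, as RXRKO replicate 2 held the highest RXRKO value in 27 genes and RXRKO replicate 3 the lowest in 25.

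Levels of different members were compared per kilobase of exon. Top2a (35.3 CPM per kb), Incenp (35.1 CPM per kb), Ccnb2 (34.8 CPM per kb) and Smc4 (32.3 CPM per kb) were the most abundant in WT. Cdc25c (1.49 CPM per kb), Cenpf (2.91 CPM per kb) and Ttk (3.34 CPM per kb) were the least. In RXRKO, Top2a, Incenp, Ccnb2 and Smc4 stood at 23.5, 24.7, 19.1 and 23.1 CPM per kb. Lengths are those of all annotated exons joined, which exceeds the length of a single transcript.

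Other genes of mitosis, from a list of 68 outside the set, were mostly lower too. Of these, 52 fell, 0 rose and 16 did not pass, with a median log2 fold change of -0.63. The share called lower was 76.5%, against 9.61% of all tested genes. Leaving out a library gave 37 to 48 lower calls in this list, and the replicate block gave 43. Cks1b, a small CDK-binding subunit, averaged 43.6 ± 6.76 CPM in WT and 22.1 ± 1.87 CPM in RXRKO, a log2 fold change of -0.97 (SE 0.126, adjusted p = 0.000169). Cdca3 (-0.84), which triggers mitotic entry, and the kinase gene Melk (-0.77) fell as well. Among DNA replication and S phase genes 25 of 42 were lower (59.5%) and 0 higher, with a median of -0.42. Without WT replicate 1, 15 of them were called lower. Thymidine kinase (Tk1) fell from 87.7 ± 2.27 to 45.3 ± 1.42 CPM (-0.95, SE 0.0822, adjusted p = 6.13e-06), and the ribonucleotide reductase genes Rrm2 (-0.72) and Rrm1 (-0.51) fell too. The plot of log2 fold changes by list sets these beside the 50 genes.

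Cohesin and the APC/C also work outside mitosis. Of 16 genes of cohesin and the remaining condensin subunits, 3 fell, 2 rose and 11 did not pass (median -0.03). The share called lower was 18.8%, against 9.61% of all tested genes, and 1173 of the 12011 tested genes were called higher. The 3 that fell were Cdca5 (-0.64), which protects cohesion until anaphase, the acetyltransferase gene Esco2 (-0.56) and Ncapg2 (-0.40). The cohesin loaders Nipbl (0.27) and Mau2 (0.30) rose, and both calls were lost without WT replicate 1 or 2 or RXRKO replicate 1 or 2, that of Nipbl also without RXRKO replicate 3 and with no filter on low counts. Both were lost as well with the replicate block and with offsets for length and GC content. Among 21 APC/C and SCF ubiquitin ligase genes 4 fell, 0 rose and 17 did not pass (median -0.17). So 19.0% were called, all of them lower. Over all tested genes 9.61% were called lower and 19.4% in either direction. Cyclin F (Ccnf, -0.75), the APC/C inhibitor gene Fbxo5 (-0.61) and Ube2s (-0.56), the second ubiquitin-conjugating enzyme of the APC/C, were among those that fell; 6 genes fell without WT replicate 3. These lists share no gene with the 50, and differences between lists were not tested.

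Transcriptional regulators of the mitotic programme had calls in both directions. Of 30 genes of this list, which also holds CDK inhibitors and kinases, 6 fell, 2 rose and 22 did not pass (median -0.22). The share called lower was 20%, against 9.61% of all tested genes, and 1173 of the 12011 tested genes were called higher. Foxm1, the forkhead factor that drives late cell cycle genes, had 44.3, 47.0 and 51.8 CPM in WT and 30.6, 31.6 and 26.5 CPM in RXRKO, a log2 fold change of -0.69 (SE 0.105, adjusted p = 0.000573). All RXRKO values of Foxm1 lay below all WT values. The E2F genes E2f2 (-0.34) and E2f6 (-0.31) also fell; E2f2 lost its call without WT replicate 2 or RXRKO replicate 1 or 2, and E2f6 without WT replicate 1 or 2 or RXRKO replicate 1 or 3 or with no filter. Cdkn1c, which encodes the CDK inhibitor p57, rose from 31.0, 43.3 and 27.9 CPM in WT to 59.4, 50.3 and 70.3 CPM in RXRKO (0.83, SE 0.160, adjusted p = 0.00333). The retinoblastoma gene Rb1 rose as well (0.34), a call lost without WT replicate 1 or RXRKO replicate 1 or 2. With the replicate block the calls of E2f2, E2f6 and Rb1 were lost too. Without RXRKO replicate 1 a single gene of the list was called lower, and 3 were without RXRKO replicate 2, RXRKO replicate 3 or WT replicate 3.

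**Figure D3:**
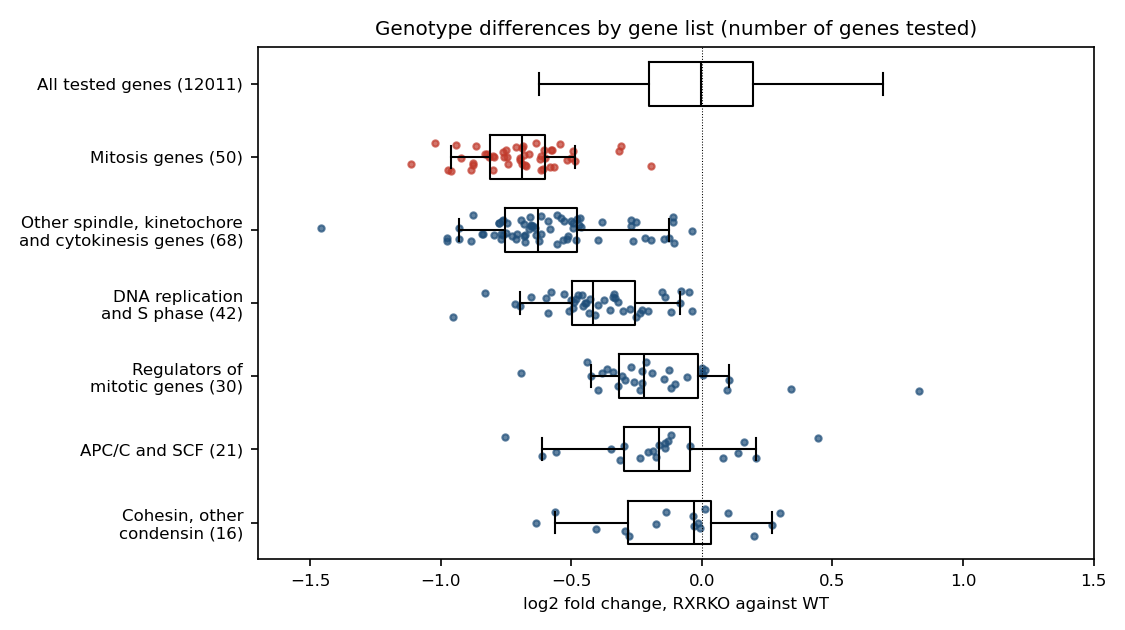
Log2 fold change of RXRKO against WT for all 12011 tested genes and for each list (points are genes, boxes are quartiles with the median, whiskers are the 5th and 95th percentiles). The medians are -0.69 for the 50 mitosis genes, -0.63 for the other mitosis genes and -0.42 for replication genes, while the medians of the last 3 lists are -0.22, -0.17 and -0.03.

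Markers of other cells that a marrow culture could hold were measured beside the mitosis genes. Of 9 tested markers of granulocyte and monocyte progenitors, which divide, 4 fell (44.4%, against 9.61% of all tested genes) and 0 rose. Their median log2 fold change was -0.25, with 3 of 9 above zero, up to 0.51 (Kit, which did not pass). The 10 listed genes summed to 106 to 126 CPM in WT and 63.3 to 68.6 CPM in RXRKO. Myeloperoxidase (Mpo) fell from 54.3 ± 2.90 to 29.5 ± 1.81 CPM (-0.88, SE 0.0948, adjusted p = 3.77e-05), and the granule protease genes Elane (-1.10), Prtn3 (-0.83) and Ctsg (-1.27) fell too, the last named after its values were seen. Mpo, Elane and Prtn3 held most of the summed level. The stem and progenitor receptor gene Kit averaged 1.80 CPM in WT against 2.55 CPM in RXRKO, and no marker of this list was at 0 in all libraries. Of 10 neutrophil markers 1 was lower (10%) and 2 higher, and of 5 monocyte markers 2 were lower (40%). Among all 12011 tested genes, 9.61% were called lower and 1173 genes were called higher. Neutrophil markers summed to 1060 to 1199 CPM in WT and 1013 to 1138 CPM in RXRKO, and monocyte markers to 46.4 to 52.9 CPM and 39.9 to 43.9 CPM. Stromal markers summed to 12.4 to 14.4 CPM in WT and 5.48 to 12.1 CPM in RXRKO, with 2 of 4 tested lower, and B cell markers to 4.96 to 5.94 CPM and 1.98 to 2.91 CPM, with the 1 tested lower. T and NK cell markers summed to at most 15.5 CPM, dendritic markers to 2.55 CPM, mast, basophil and eosinophil markers to 3.39 CPM and erythroid markers to 0.62 CPM, with 4 of 6 erythroid genes at 0. The part of these cells in the lower mitosis genes was not tested.

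Sequence around the start sites, which the choice by symbol did not use, was searched for a pair of motifs. Late cell cycle promoters are known for the cell cycle homology region (CHR), bound by the MuvB complexes that repress these genes in resting cells and, with B-MYB and FOXM1, activate them before mitosis. They are also known for CCAAT boxes, bound by NF-Y. RefSeq start sites (GRCm38.p6) were matched for 42 of the 50 genes, and each sequence runs from 250 bases before the start to 50 after it. The letters TTTGAA, the CHR core, were searched on both strands (TTCAAA on the other) and found in 32 of the 42, or 76.2%. In the 250 bases before the start alone the share was 38.1%, against 18.3% of all genes. Over the full 300 bases, of all 27025 genes with such a sequence 20.2% held them, and of the 9268 tested genes 14.4%. CCAAT (or ATTGG) was found in 32 as well, where all genes gave 41.1% and tested genes 43.1%. Both were present in 28, or 66.7%, against 7.97% of all genes and 6.03% of tested genes. In the 250 bases before the start alone, both were present in 35.7%, against 6.45% of all genes.

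The CHR core lay near the start. Of 45 matches at the 45 start sites listed for these genes, 32 lay between 30 bases before the start and the end of the sequence, which is 71.1%, against 19.3% of the 6737 matches at all start sites. This interval was chosen after the positions were seen. Matches of both motifs in Prc1, Ect2 and Bub3 were counted at each of their listed starts, so the same bases recur in the counts. CCAAT matches, 77 in all, spread further upstream, and 21 genes had at least 2 at a start. A match is a run of letters and not a measured binding site. Members with the core had a median log2 fold change of -0.68 (32 genes) and those without it -0.72 (10 genes).

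**Figure D4:**
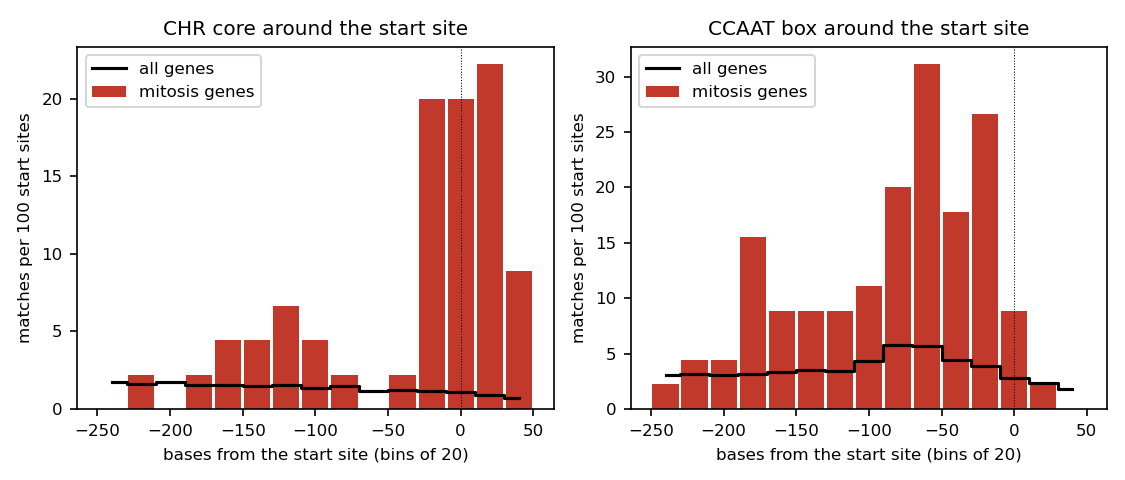
Matches of the CHR core (left) and the CCAAT box (right) per 100 start sites, in bins of 20 bases by distance from the start site; bars are the 50-gene set (45 start sites of 42 genes) and the line is all 32851 start sites. The bars of the CHR core stand highest from just before to just after the start, and those of the CCAAT box upstream of it.

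Sequences below show this arrangement in members from several roles and at both ends of the response, each from 10 bases before the first match to 10 after the last, 5′ to 3′ on the gene's strand, with matches in capitals. Ube2c had the lowest log2 fold change and Espl1 missed the threshold, and both carry the 2 motifs. Birc5 (-1.02) and Pttg1 (-0.19), also at the ends of the response, carry neither motif in these letters. The same holds for Nuf2, Nusap1, Ncaph and Mad2l1, so none of these has a sequence here. Ccnb1 shows a start with CCAAT boxes and no CHR core in these letters, and Kif20b one with 2 adjoining cores and no CCAAT.
Ube2c, chr2:164769691-164769915 on the plus strand: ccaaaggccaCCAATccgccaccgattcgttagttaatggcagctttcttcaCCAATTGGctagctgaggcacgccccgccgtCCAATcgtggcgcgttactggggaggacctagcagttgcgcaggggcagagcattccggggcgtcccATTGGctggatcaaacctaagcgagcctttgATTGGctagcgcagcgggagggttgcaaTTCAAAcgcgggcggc
Ccnb1, chr13:100786539-100786595 on the minus strand: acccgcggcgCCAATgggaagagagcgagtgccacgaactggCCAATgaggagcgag
Plk1, chr7:122159411-122159480 on the plus strand: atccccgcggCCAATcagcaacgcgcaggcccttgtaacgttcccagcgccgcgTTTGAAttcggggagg
Kif23, chr9:61946782-61946816 on the minus strand: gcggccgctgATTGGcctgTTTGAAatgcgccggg
Racgap1, chr15:99651636-99651678 on the minus strand: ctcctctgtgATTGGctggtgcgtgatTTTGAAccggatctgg
Prc1, chr7:80294404-80294461 on the plus strand: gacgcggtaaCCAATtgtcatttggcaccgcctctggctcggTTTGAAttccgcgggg
Kif11, chr19:37376327-37376378 on the plus strand: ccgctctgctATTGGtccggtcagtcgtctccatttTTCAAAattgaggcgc
Cdc20, chr4:118437337-118437406 on the minus strand: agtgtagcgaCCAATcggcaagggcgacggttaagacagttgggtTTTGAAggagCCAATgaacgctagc
Kif20b, chr19:34922355-34922386 on the plus strand: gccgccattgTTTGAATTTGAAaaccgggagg
Espl1, chr15:102296239-102296281 on the plus strand: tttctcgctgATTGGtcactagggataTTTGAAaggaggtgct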

How the data were processed

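Per the labels, 6 RNA libraries (3 WT, 3 RXRKO) were made with NEBNext Ultra II chemistry and sequenced on a NextSeq 550. TopHat2 2.0.7, DESeq and mm10 (GRCm38) appear in the submitters' processing notes. Counting program, annotation release and strand setting: not given in the sources used here. The authors deposited raw counts per Ensembl gene, used for all main tests, and log2 normalized values, each a library's count multiplied by 1 constant of that library and then logged. Symbols were matched for 45106 of 45193 genes; positions, exon lengths, GC content and exon overlaps came from GENCODE M21 (GRCm38) and promoter sequences from RefSeq (GRCm38.p6).

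The main test was the quasi-likelihood F test of edgeR 4.0.16 under R 4.3.3, robust, with genotype as the sole term and TMM scaling, over 12011 genes kept by filterByExpr (minimum count 10, minimum total 15), with Benjamini-Hochberg adjustment and calls at adjusted p under 0.05. SEs were obtained by dividing the size of the log2 fold change by the root of F. The fit was also run on simulated data with known changes. These were drawn from the fit's own estimates, so that run does not check the model on these libraries. Total counts ran from 7880320 to 25091019. Alternatives were RLE and upper-quartile factors, no filter, a CPM filter (1 or more in 3 libraries), DESeq2 1.42.0, limma-voom (limma 3.58.1), limma on the authors' log2 values (linear value plus 1), a replicate block, each library left out, thinning to 7880320 counts, and offsets smoothed on length and GC with mgcv 1.9.3 (12003 of 12011 genes had both).

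The 50 members and the lists were chosen with earlier results of these data known, so the lists have counts and medians and no test of their own. Every member could be named. Values in each library are given for the member with the highest mean CPM, the lowest and highest log2 fold change and the smallest adjusted p in each role, and for members short of the threshold. Library values for Cdc25c, and the genes Kit and Ctsg, were added after their values were seen, as was giving each library's value for Foxm1 and Cdkn1c. In other lists the up to 3 genes in each direction with the smallest adjusted p could be named. Exons of 15 of the 50 members overlap another gene. Named pseudogene copies of Ccnb1, Ccnb2, Kif22 and Kif4 held 4, 67, 0 and 1 reads in all.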

Additional observations from a re-analysis of the deposited data

How the results depend on the processing

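Members called lower numbered 46 to 48 under the 16 alternatives, none was called higher in any of them, and the median log2 fold change stayed between -0.71 and -0.66. Of the 48 calls, 46 held in every alternative. Cdc25b lost its call in 7 and Cdc25c in 9, and Espl1 gained one in 2. The estimate for Pttg1 turned to 0.0054 without WT replicate 2 and was -0.36 without WT replicate 3.

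Counts over all genes moved more. With the replicate block, 1375 genes were called in place of 2327, 666 lower in place of 1154, 1 mitotic regulator lower in place of 6 and 1 gene of the other cell cycle lists higher in place of 4, while 46 members were called lower. Same-numbered libraries did not deviate together (correlations 0.0528, -0.275 and -0.259), so the numbers were not taken to pair them. With the length and GC offsets 2 genes of those lists were higher. Leaving out a library gave 1286 to 2607 genes in all, 619 to 1329 lower, 1 to 4 regulators lower, 15 to 26 replication genes lower, 3 to 6 APC/C and SCF genes lower and 1 to 5 higher genes; the low counts came without WT replicate 1 (1286 genes) or RXRKO replicate 1 (1383 genes).

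Restricting promoters to the 250 bases before the start lowered the share of members with the CHR core to 38.1% and with both motifs to 35.7%, and left CCAAT at 76.2%; over all genes the shares were then 18.3%, 6.45% and 37.5%. Cdc25c rests on the fewest reads of the 50. Groups of 3 libraries and one culture condition limit all results here.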
